A study of Mus musculus with 9 samples.

Results

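The genes described here encode the metzincin proteases of the MMP, ADAM and ADAMTS families and their TIMP inhibitors in 66cl4 cells, a mouse mammary carcinoma line. Members were the rows of the count table whose symbol names an Mmp, a Timp, an Adam, an Adamts or an Adamts-like gene and whose mean counts-per-million (CPM) level reached 0.1 in at least 1 of the 3 groups. Of 52208 rows, 85 carried such a symbol and 42 were members. These were 13 of 23 Mmp genes, 3 of 4 Timp genes, 15 of 34 Adam genes, 9 of 19 Adamts genes and 2 of 5 Adamts-like genes. The lowest member, Adam32, reached 0.118 CPM in its highest group, and the nearest gene below the limit, Adam21, reached 0.0660. Of the 43 genes left out, 20 had no counts in any library.

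Matrix metalloproteinases (MMPs) are zinc proteases made as inactive precursors that cut collagens, gelatin, proteoglycans and other matrix proteins once their propeptide is removed, and some stay anchored in the plasma membrane. ADAMs are membrane proteases that release the outer domains of growth factors, cytokines and receptors, whereas the secreted ADAMTS proteases cut proteoglycans, process procollagens or act on fibrillin microfibrils. TIMPs bind the active site of these enzymes, and several MMP genes are textbook targets of AP-1 and NF-kB signalling in tumour and inflamed tissue.

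The series sequenced mRNA from 3 groups of 3 cultures labelled as biological replicates, and the labels describe no further how the cultures were separated. Scramble cells carried shScramble and the Empty Vector. Knockdown cells carried the shEya3 hairpin and the Empty Vector, and add-back cells carried the same shEya3 hairpin with IKK2-SE, described in the series title as a constitutively active NF-kB add-back, in place of the Empty Vector. Eya3 is a transcriptional co-activator with phosphatase activity, and IKK2 is a kinase upstream of NF-kB. All cells were kept in puromycin and chosen on mCherry, no cells without a hairpin were included, and a single Eya3 hairpin was used, which the sample titles number KD2 and the table columns KD3. Whether the lines were pools or clones, and which promoter drives IKK2-SE, is not given in the sources used here.

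Levels below are in CPM after TMM scaling, a correction of library size for composition, given as mean ± SD of 3 libraries. Library totals ran from 63601403 to 81534534 counts. Eya3 was at 62.7 ± 1.63 CPM in scramble, 25.0 ± 0.602 in knockdown and 26.6 ± 2.21 in add-back cells. Levels of Ikbkb, the mouse IKK2 gene, were 47.8 ± 2.56, 44.3 ± 0.435 and 48.6 ± 1.27 CPM, and whether reads of the IKK2-SE construct count towards this gene is not given in the sources used here. Against their label as breast cancer cells, 5 of 6 epithelial markers (Epcam, Krt18, Krt19, Cdh1 and Cldn4) stayed under 1 CPM in every group while Krt8 was at 628 ± 29.6 CPM in scramble, 1329 ± 68.3 in knockdown and 1073 ± 39.6 in add-back cells. All 4 mesenchymal markers were above 1 CPM, and with the hairpin Vim rose 1.38-fold, Zeb1 rose 1.56-fold, Cdh2 fell 1.23-fold and Twist1 was not called. Of 6 neutrophil markers, S100a9 and Mpo had no counts. The 6 summed between 0.120 and 0.243 CPM in scramble, between 0.133 and 0.140 in knockdown and between 1.24 and 1.79 in add-back libraries. The 6 macrophage markers summed between 30.7 and 33.4 CPM in scramble, 19.4 and 22.6 in knockdown and 23.1 and 24.8 in add-back libraries. Cd68 and Lyz2 made up most of that sum, and Cd68 fell 3.45-fold with the hairpin (edgeR adjusted p = 9.0e-11). Of the defining macrophage markers, Csf1r had 18, 45 and 31 counts in the 3 groups and Adgre1 had 0, 0 and 2. The 4 endothelial markers summed between 4.32 and 5.11 CPM in scramble, 0.213 and 0.459 in knockdown and 0.622 and 0.971 in add-back libraries, most of it Cdh5, which fell 19.1-fold with the hairpin (edgeR adjusted p = 1.1e-10). The 6 fibroblast markers summed between 46.4 and 57.9 CPM over all libraries, most of it Pdgfra, with Thy1 at 0. Among them Pdgfrb rose from 1.24 ± 0.0511 CPM in scramble to 7.08 ± 0.756 in knockdown and 10.7 ± 1.01 in add-back cells, and Dcn had 0, 15 and 155 counts in the 3 groups. Pdgfra and Col1a1 went the other way with the hairpin (edgeR adjusted p = 0.00010 and 0.0015). Pdgfra was at 47.9 ± 0.804, 39.8 ± 2.09 and 42.7 ± 0.828 CPM in the 3 groups, and Col1a1 at 3.96 ± 0.418, 2.595 ± 0.341 and 1.52 ± 0.241 CPM. The 4 lymphocyte markers summed to at most 0.333 CPM in each. The part of these markers in the results was not tested.

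Levels between genes are compared per kilobase of annotated exon. In scramble cells Timp2 had the highest level at 88.9 CPM per kilobase, followed by Timp1 at 41.8, Adam9 at 34.4, Adam10 at 26.7 and Mmp14 at 25.6. Adam17, the sheddase of tumour necrosis factor, was at 20.7 CPM per kilobase, Adam15 at 16.9, Mmp24 at 16.6 and Adamts1 at 15.1. The TIMP sum over the 3 members, 131 ± 3.27 CPM per kilobase, was above the ADAM sum of 108 ± 0.493, the MMP sum of 58.3 ± 2.88 and the ADAMTS sum of 37.3 ± 0.378. Of the 42 members, 32 reached the 0.1 limit in all 3 groups, 2 (Timp3 and Mmp13) in 2 groups and 8 in a single group. Those 8 were Mmp1b, Mmp2, Mmp25, Adam5, Adam12, Adam32, Adam33 and Adamts17.

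**Figure D1:**
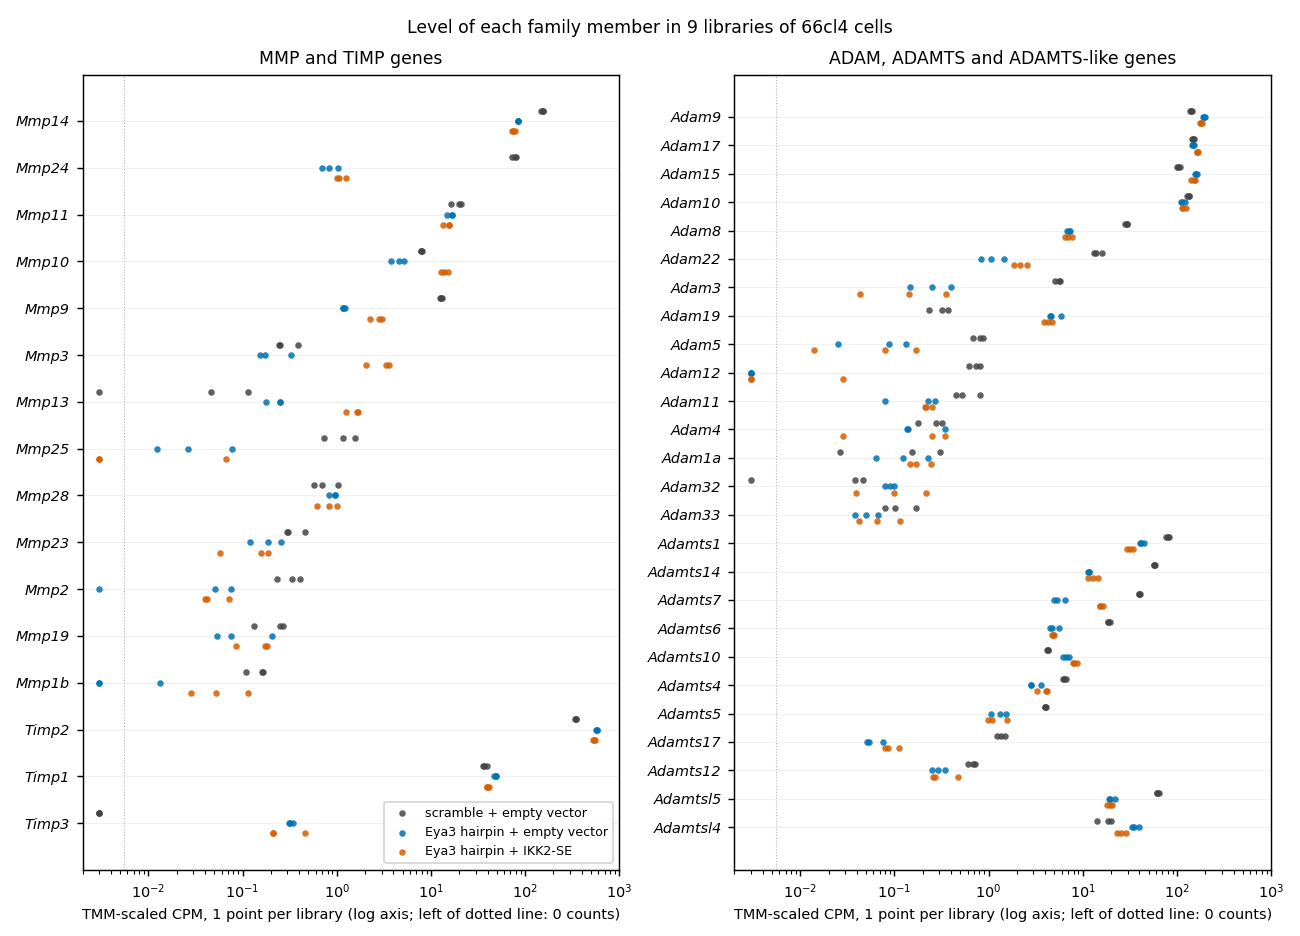
Level of each of the 42 members in every library, as TMM-scaled CPM on a log axis, with 1 point per library and genes without counts drawn left of the dotted line. Black points are scramble, blue knockdown and orange add-back libraries, and within each family genes are ordered by their highest group mean. Mmp24 shows the widest gap of the MMP genes above 1 CPM, with scramble libraries near 77.6 CPM and knockdown libraries near 0.854 CPM.

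Cells with the Eya3 hairpin had lower levels of most MMP and ADAMTS genes and higher levels of all 3 measured TIMP genes than scramble cells. The membrane-anchored Mmp24 fell 90.9-fold, the gelatinase Mmp9 10.9-fold and the procollagen N-propeptidase Adamts14 4.93-fold, while Adam19 rose 16.3-fold and the inhibitor Timp2 1.66-fold. Of 42 members, 39 had enough counts for the test. With edgeR's quasi-likelihood test at a Benjamini-Hochberg adjusted p below 0.05 over all 16766 tested genes, 9 members were higher, 23 lower and 7 not called. Over all tested genes 27.7% were called higher and 29.9% lower, so the share of members called higher (23.1%) lay below the background and the share called lower (59.0%) above it. The median log2 fold change was -0.93 over the tested members, also with the 2 members that had no counts in a group set at their bound, and -0.001 over all tested genes. The tested members include 5 that reached the member limit in scramble cells alone and so were chosen for being higher there. These were Mmp2, Mmp25, Adam5, Adam12 and Adamts17. Timp3 and Mmp13 reached the limit in knockdown and add-back cells alone, so their rises were favoured in the same way. Among the 32 at 0.1 CPM in all groups 7 were higher and 18 lower, with a median log2 fold change of -0.89. In these bulk libraries fewer cells that use a gene and less of its RNA per cell cannot be told apart.

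**Figure D2:**
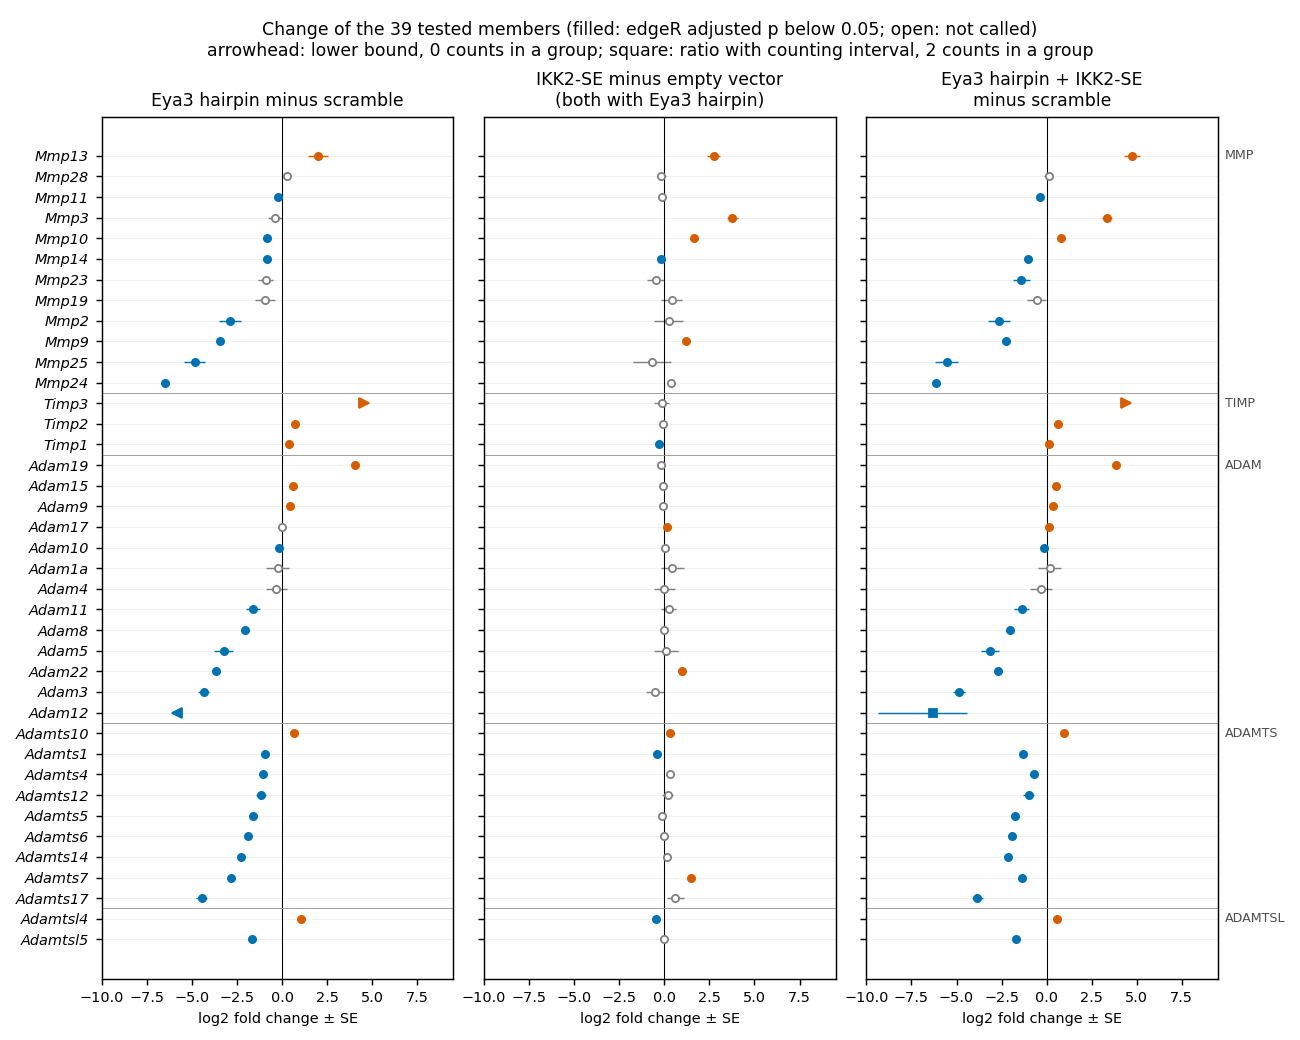
Log2 fold change ± SE of the 39 tested members for the Eya3 hairpin (left), for IKK2-SE with the hairpin present (middle) and for both together relative to scramble (right), from edgeR over all 9 libraries. Filled points have an adjusted p below 0.05, arrowheads are lower bounds where a group had no counts, the square is a count ratio with its 95% interval, and Adam12 has no point in the middle panel because neither group passed 3 counts. In the left panel 23 members lie on the lower side and 9 on the higher side among those called, and in the middle panel 4 and 8.

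Of the membrane-type MMPs, Mmp24, Mmp25 and Mmp14 were each called lower, Mmp25 being a member through its scramble level alone, so that its direction was favoured by the choice of members. Mmp24, an MMP best known from neurons (chromosome 2, 155775342 to 155818366, plus strand, GRCm38), stood at 80.9, 78.9 and 72.9 CPM in the scramble libraries and at 0.824, 0.701 and 1.04 CPM in the knockdown libraries. The scramble and knockdown libraries did not overlap. The log2 fold change was -6.51 ± 0.10 (SE; edgeR adjusted p = 1.8e-17). Its exons share 13.6% of their length with those of BC029722 on the opposite strand, which went from 37.0 to 43.5 CPM, and whether the counting used strand is not given in the sources used here. Mmp25, a lipid-anchored MMP of leukocytes, was at 1.18, 1.56 and 0.731 CPM in scramble and 0.0125, 0.0765 and 0.0266 CPM in knockdown libraries. Its level fell 28.8-fold without overlap (log2 -4.85 ± 0.59, edgeR adjusted p = 2.7e-06), on 9 counts in all 3 knockdown libraries together, and the fall was 54.96-fold without knockdown replicate 2. Mmp14, the main collagenase of the cell surface and an activator of the Mmp2 precursor, was at 157, 154 and 146 CPM in scramble and at 84.2, 83.8 and 83.3 CPM in knockdown libraries. Its fall was smaller, 1.82-fold, and again without overlap (log2 -0.86 ± 0.04, edgeR adjusted p = 2.3e-11).

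Of the secreted gelatinases, Mmp9 was called lower and was above the member limit in all groups, whereas Mmp2 was a member through its scramble level alone. Mmp9 (chromosome 2, 164940780 to 164955850, plus strand, GRCm38) was at 13.2, 12.8 and 12.6 CPM in scramble and 1.16, 1.16 and 1.24 CPM in knockdown libraries. Every knockdown library lay below every scramble library, with a log2 fold change of -3.44 ± 0.11 (edgeR adjusted p = 3.6e-13). Neutrophils are a known source of this enzyme. Of their 6 markers, S100a8 had 27 counts over the scramble and 26 over the knockdown libraries, Elane 6 and 2, Csf3r 6 and 4, Ly6g 1 and 0, and S100a9 and Mpo none, and the part of these markers in the fall was not tested. Mmp2 was low, at 0.232, 0.410 and 0.332 CPM in scramble and 0.0749, 0.0510 and 0 CPM in knockdown libraries. It fell 7.41-fold (log2 -2.89 ± 0.62, edgeR adjusted p = 0.00080) on 72 and 10 counts per group, or 11.8-fold without knockdown replicate 1.

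The stromelysins and the tested collagenase, Mmp13, moved by less or the other way. The collagenase Mmp1b had too few counts for the test, with 32 over the scramble and 1 over the knockdown libraries. It was a member through its scramble level alone. Mmp10 was at 7.84, 8.10 and 7.90 CPM in scramble and 3.81, 5.14 and 4.56 CPM in knockdown libraries, a 1.77-fold fall without overlap (log2 -0.82 ± 0.10, edgeR adjusted p = 2.9e-06). Mmp11, a stromelysin cut to its active form inside the cell, was at 19.1 ± 2.40 and 16.2 ± 1.12 CPM, and its call (log2 -0.24 ± 0.09, edgeR adjusted p = 0.032) was lost without scramble replicate 1 (adjusted p = 0.158), scramble replicate 2 (0.135) or knockdown replicate 2 (0.153). The 40 tested genes nearest Mmp11 had a median log2 fold change of -0.60. Mmp3, stromelysin of connective tissue, was at 0.387, 0.243 and 0.252 CPM in scramble and 0.325, 0.153 and 0.173 CPM in knockdown libraries, which overlapped and gave no call (edgeR adjusted p = 0.38). Mmp13, a collagenase of cartilage and bone, was near its limit of detection at 0.0464, 0.115 and 0 CPM in scramble and at 0.250, 0.178 and 0.253 CPM in knockdown libraries. It was the only 1 of the 12 tested MMPs called higher, 4.04-fold (log2 2.01 ± 0.56, edgeR adjusted p = 0.0054), on 12 and 53 counts. Of these 12, 8.33% were called higher and 58.3% lower, beside 27.7% and 29.9% of all tested genes. The 7 called lower include Mmp2 and Mmp25, which were members through their scramble level alone. Mmp13 was a member through its knockdown and add-back levels alone, so its rise was favoured by the choice of members. The rise was 9.86-fold without scramble replicate 2 and 2.68-fold without scramble replicate 3. Mmp19, Mmp23 and Mmp28, all under 1 CPM in both groups, were not called, with log2 fold changes of -0.95, -0.92 and 0.27, and Mmp19 was called lower without knockdown replicate 2 (edgeR adjusted p = 0.034). Exons of Mmp19 share 22.3% of their length with Tmem198b on the opposite strand, which fell from 15.97 to 8.17 CPM.

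The TIMP genes were called higher in all 3 cases, beside 27.7% of all tested genes. Timp3 was a member through its knockdown and add-back levels alone, so its rise was favoured by the choice of members. Timp2, which also takes part in activating Mmp2 on the cell surface (chromosome 11, 118301069 to 118355740, minus strand, GRCm38), was at 349, 350 and 339 CPM in scramble and 582, 567 and 574 CPM in knockdown libraries. These groups were far apart, with a log2 fold change of 0.73 ± 0.04 (edgeR adjusted p = 3.4e-11). Timp1, a secreted inhibitor, was at 39.2, 36.5 and 35.6 CPM in scramble and 49.2, 49.6 and 47.3 CPM in knockdown libraries. Its 1.31-fold rise was small but without overlap (log2 0.39 ± 0.05, edgeR adjusted p = 2.6e-06). Timp3, a matrix-bound inhibitor that also blocks Adam17 and ADAMTS enzymes, had no counts in the 3 scramble libraries and was at 0.312, 0.319 and 0.346 CPM in knockdown libraries. Against a floor of 3 counts over the scramble group it was at least 23.6-fold higher (edgeR adjusted p = 1.1e-05). Its exons share 21.3% of their length with Syn3 on the opposite strand, which was at 0 and 0.0252 CPM in these groups. Summed per kilobase, TIMP transcripts went from 131 ± 3.27 to 202 ± 2.25 CPM per kilobase as the MMP sum went from 58.3 ± 2.88 to 23.6 ± 0.126, and neither sum overlapped between the groups.

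The ADAM genes split. Of 13 tested, 3 were higher, 7 lower and 3 not called. These shares, 23.1% higher and 53.85% lower, stand beside 27.7% and 29.9% of all tested genes. Adam10, the main sheddase of Notch receptors and cadherins, was at 127, 133 and 133 CPM in scramble and 111, 113 and 123 CPM in knockdown libraries, a 1.13-fold fall (log2 -0.18 ± 0.04, edgeR adjusted p = 0.0026). Adam17 was at 146, 148 and 150 CPM in scramble and 145, 154 and 147 CPM in knockdown libraries, which overlapped (log2 0.00 ± 0.04, edgeR adjusted p = 0.97, with the sign turned when library totals replaced TMM). Adam9, a widely used ADAM with many reported substrates, was at 142, 139 and 143 CPM in scramble and 191, 192 and 197 CPM in knockdown libraries, a 1.37-fold rise without overlap (log2 0.45 ± 0.03, edgeR adjusted p = 1.0e-08). Adam15 rose 1.55-fold from 104 ± 3.40 to 161 ± 3.999 CPM (edgeR adjusted p = 2.7e-09), and the 40 tested genes nearest to it had a median log2 fold change of 0.45.

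Larger changes were seen among ADAMs with low levels. Adam19, a protease known from heart development and neuregulin shedding (chromosome 11, 46055992 to 46147343, plus strand, GRCm38), was at 0.371, 0.230 and 0.319 CPM in scramble and 5.85, 4.56 and 4.49 CPM in knockdown libraries. The lowest knockdown library stood above the highest scramble library, with a log2 fold change of 4.03 ± 0.19 (edgeR adjusted p = 2.5e-11). Adam8, an ADAM of leukocytes and invasive tumour cells, fell 4.09-fold from 29.0 ± 0.854 to 7.09 ± 0.191 CPM (edgeR adjusted p = 5.4e-13). Adam12, related to Adam19 and known from muscle and placenta, had 157 counts over the scramble libraries and none in the knockdown libraries, which makes it at least 56.1-fold lower against the floor of 3 counts (edgeR adjusted p = 8.3e-07). Adam12 was a member through its scramble level alone, so this direction was favoured by the choice of members. Adam22 and Adam11, nervous-system ADAMs without a working catalytic site, both fell. Adam22, a receptor of LGI proteins, was at 13.2, 13.7 and 15.9 CPM in scramble and 1.07, 0.841 and 1.48 CPM in knockdown libraries, a 12.7-fold fall without overlap (log2 -3.66 ± 0.16, edgeR adjusted p = 7.9e-12). Adam11 fell 3.09-fold from 0.595 ± 0.187 to 0.191 ± 0.0984 CPM (edgeR adjusted p = 0.0023).

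Adam3 and Adam5, ADAMs of sperm, lie next to each other on chromosome 8 with Adam9, and moved in the opposite direction to it. Adam3 (24677225 to 24725852, minus strand, GRCm38) was at 5.58, 5.02 and 5.75 CPM in scramble and 0.250, 0.395 and 0.146 CPM in knockdown libraries. It fell 20.5-fold without overlap (log2 -4.35 ± 0.32, edgeR adjusted p = 1.8e-08), and Adam5 fell 9.49-fold from 0.789 ± 0.103 to 0.0820 ± 0.0539 CPM (edgeR adjusted p = 5.2e-05). The fall of Adam5 was favoured by the choice of members, since it reached the limit in scramble cells alone. Adam9 (24949611 to 25016927) lies at higher coordinates, also on the minus strand, and rose, as given above. Adam32, between Adam5 and Adam9, had 6 counts over the scramble and 21 over the knockdown libraries, too few for the test. Adam1a and Adam4, also genes of the male germ line, stayed under 0.3 CPM and were not called (edgeR adjusted p = 0.77 and 0.67), and 63.7% of the Adam1a exon length lies in exons of Gm42878 on the same strand.

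Of the 9 ADAMTS genes, 8 fell, 1 rose and none was uncalled. These shares, 88.9% lower and 11.1% higher, stand beside 29.9% and 27.7% of all tested genes. The fall covered all 3 members classed here as enzymes that cut aggrecan and versican. Adamts1 was at 77.2, 82.1 and 80.8 CPM in scramble and 44.9, 41.4 and 40.2 CPM in knockdown libraries, a fall of 1.90-fold without overlap (log2 -0.92 ± 0.05, edgeR adjusted p = 3.7e-10). Adamts4 fell 2.06-fold from 6.34 ± 0.279 to 3.08 ± 0.453 CPM and Adamts5 3.06-fold from 4.03 ± 0.0822 to 1.31 ± 0.234 CPM (edgeR adjusted p = 1.5e-06 and 4.4e-07). Adamts14, which trims the amino end of procollagens, fell from 57.4 ± 0.688 to 11.6 ± 0.157 CPM (log2 -2.30 ± 0.07, edgeR adjusted p = 6.1e-14).

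Among the other ADAMTS genes, Adamts7, known for cutting cartilage oligomeric matrix protein (chromosome 9, 90163069 to 90208071, plus strand, GRCm38), was at 39.5, 39.2 and 40.1 CPM in scramble and 5.36, 6.44 and 4.92 CPM in knockdown libraries. This 7.10-fold fall was without overlap (log2 -2.83 ± 0.08, edgeR adjusted p = 4.2e-14). Adamts17, a gene of eye and skeletal development, was at 1.24, 1.34 and 1.501 CPM in scramble and 0.0749, 0.0510 and 0.0532 CPM in knockdown libraries, a 22.2-fold fall (log2 -4.47 ± 0.32, edgeR adjusted p = 4.0e-09). It was a member through its scramble level alone, so its direction was favoured by the choice of members. Adamts6 fell 3.78-fold from 18.7 ± 0.607 to 4.94 ± 0.581 CPM, and Adamts12 2.25-fold from 0.666 ± 0.0580 to 0.296 ± 0.0480 CPM (edgeR adjusted p = 9.8e-12 and 0.0035). Adamts10, which binds fibrillin, was the 1 that rose, at 4.15, 4.33 and 4.304 CPM in scramble and 6.20, 7.14 and 6.69 CPM in knockdown libraries (log2 0.65 ± 0.09, edgeR adjusted p = 1.1e-05).

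The ADAMTS-like proteins, which have no catalytic domain and bind fibrillin, went in opposite directions. Adamtsl4 was at 20.2, 18.4 and 14.1 CPM in scramble and 39.2, 33.3 and 35.1 CPM in knockdown libraries, a 2.05-fold rise (log2 1.03 ± 0.12, edgeR adjusted p = 1.2e-05). Adamtsl5 fell 3.14-fold from 62.7 ± 1.31 to 19.97 ± 1.65 CPM (edgeR adjusted p = 1.0e-12). The 40 tested genes nearest to each had a median log2 fold change of 0.43 around Adamtsl4 and -0.62 around Adamtsl5. Over the 32 members called in this comparison the median of the neighbours had the member's own sign for 16 and the opposite sign for 16, among the latter Timp2 (-0.29), Timp3 (-0.51), Mmp25 (0.37) and Adam22 (0.31). Between add-back and scramble cells it had the member's own sign for 25 of 35 called members. Between add-back and knockdown cells it did so for 7 of 12.

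**Figure D3:**
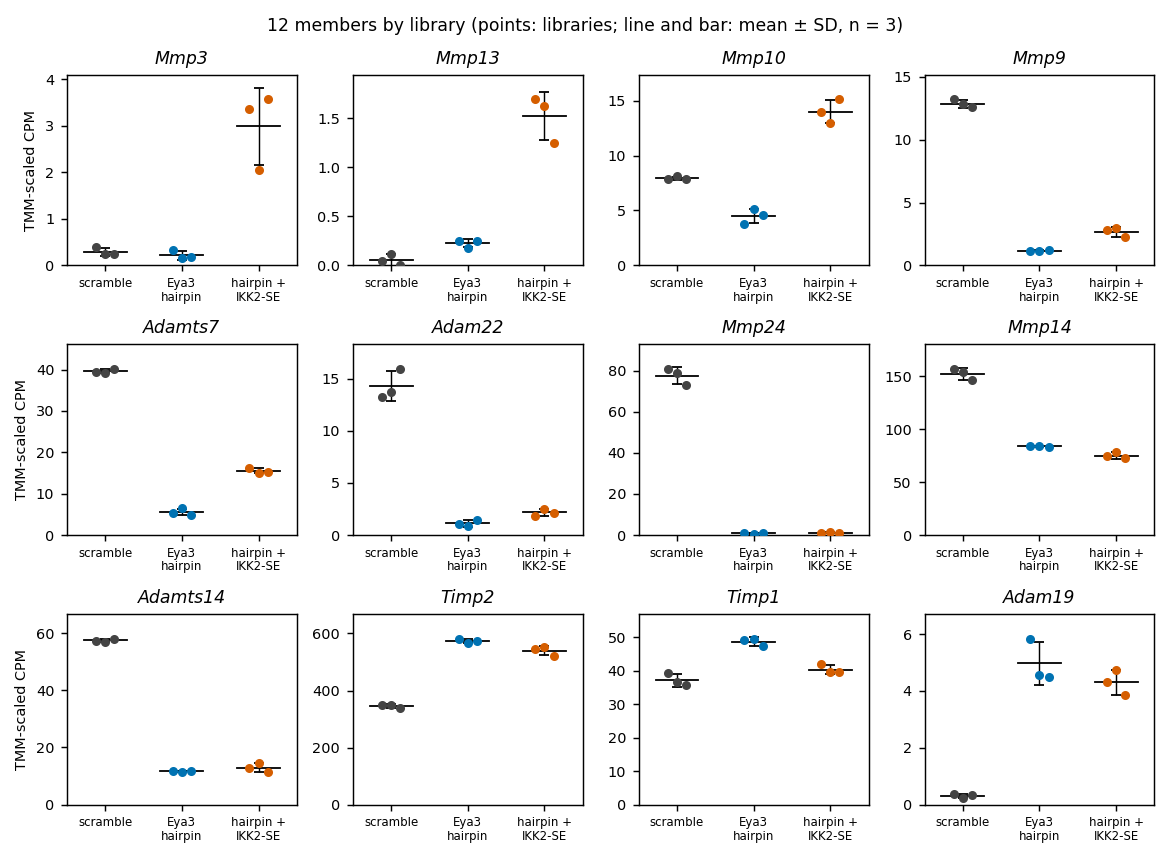
TMM-scaled CPM of 12 members in each library, with scramble, knockdown and add-back libraries from left to right in each panel, points for libraries and a line and bar for the mean ± SD of 3. Mmp3, Mmp13 and Mmp10 are highest in add-back libraries, Mmp9, Adamts7 and Adam22 lie between the other groups there, and Mmp24, Adamts14 and Adam19 sit near their knockdown level.

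With IKK2-SE added to the knockdown cells a small set of proteases was higher, led by the stromelysin and collagenase genes of the MMP cluster on chromosome 9. Mmp3 rose 13.7-fold, Mmp13 6.66-fold and Mmp10 3.11-fold, and outside the cluster Adamts7 rose 2.79-fold, Mmp9 2.28-fold and Adam22 1.94-fold. With the same edgeR fit 8 members were higher, 4 lower and 27 not called, against 5.61% of all tested genes called higher and 4.82% called lower. The members' shares were 20.5% and 10.3%. Without add-back replicate 3, or without knockdown replicate 1, 2 members were called lower. Of all 1749 genes called, 53.8% were higher, and 65.9% of the 1759 called with library totals in place of TMM. The median log2 fold change of the tested members was 0.03, or 0.02 without Adam12, which had 0 and 2 counts in these groups, against 0.001 over all tested genes. The knockdown libraries serve both this comparison and the one against scramble.

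The MMP cluster lies on chromosome 9 of GRCm38 from Mmp13 (7272514 to 7283331, plus strand) to Mmp7, with 10 genes of the symbol pattern, of which 4 were members. Mmp3 (7445822 to 7455975, plus strand) was at 0.325, 0.153 and 0.173 CPM in knockdown and at 3.37, 2.05 and 3.57 CPM in add-back libraries. The lowest add-back library stood above the highest knockdown library, with a log2 fold change of 3.77 ± 0.30 (edgeR adjusted p = 2.4e-07). Mmp13 went from 0.250, 0.178 and 0.253 CPM to 1.69, 1.63 and 1.24 CPM, also without overlap (log2 2.74 ± 0.35, edgeR adjusted p = 7.0e-05). Mmp10 (7502352 to 7510240, plus strand), the most abundant gene of the cluster, went from 3.81, 5.14 and 4.56 CPM to 13.9, 12.95 and 15.1 CPM, again without overlap (log2 1.64 ± 0.10, edgeR adjusted p = 9.6e-09). Mmp1b, a mouse collagenase paralog on the minus strand between Mmp13 and Mmp3, had too few counts for the test: 32 over the scramble, 1 over the knockdown and 14 over the add-back libraries. Its add-back to knockdown ratio was 15.1 with a 95% counting interval from 2.30 to 639.

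Genes on either side of the cluster were not called. The flanking genes Dcun1d5, Tmem123, Birc2 and Yap1 had log2 fold changes of -0.07, -0.02, 0.02 and -0.06 between add-back and knockdown cells (edgeR adjusted p = 0.41, 0.87, 0.91 and 0.35). Within the cluster Mmp8, Mmp27 and Mmp20 had no counts in any library. Mmp12, Mmp1a and Mmp7 had at most 6 counts over a group.

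**Figure D4:**
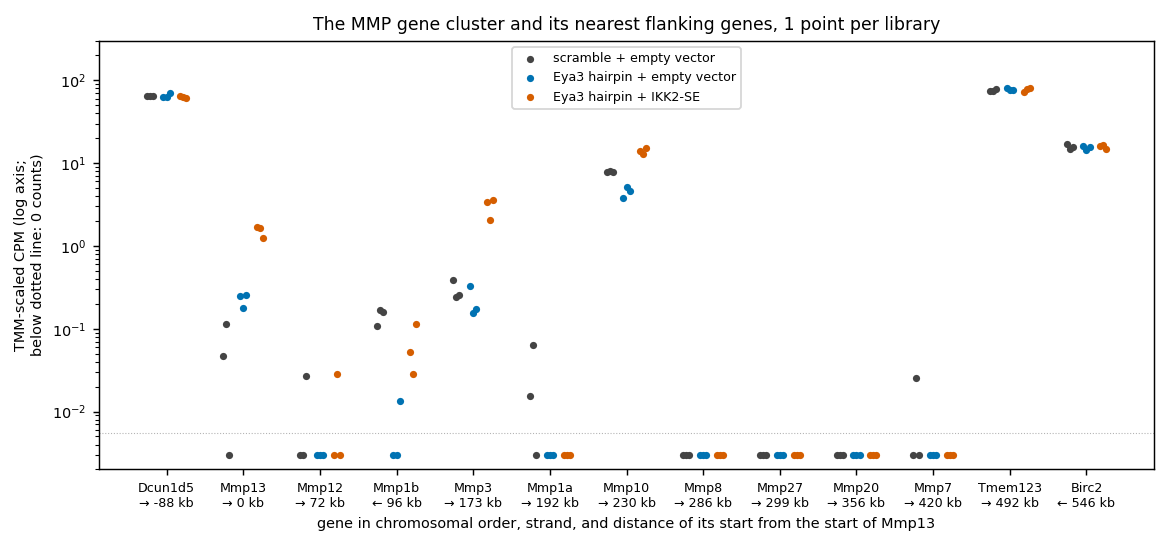
The MMP cluster and its nearest protein-coding flanking genes in chromosomal order, with the strand and the distance in kilobases from the start of Mmp13 on the x axis and TMM-scaled CPM on a log y axis, 1 point per library. Genes without counts in a library lie below the dotted line. The orange add-back points stand above the blue knockdown points for Mmp13, Mmp3 and Mmp10, while the ranges of these 2 groups overlap for Dcun1d5, Tmem123 and Birc2.

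The promoter windows of the 4 member genes of the cluster are shown because they rose in the add-back cells, or, for Mmp1b, because it lies between those that did. Each runs from 250 bases before to 50 bases after the gene's start in RefSeq (GRCm38.p6) and is written 5′ to 3′ on the gene's strand, with the AP-1 motif TGANTCA in capitals.
Mmp13 (chr9:7272264-7272563, plus strand): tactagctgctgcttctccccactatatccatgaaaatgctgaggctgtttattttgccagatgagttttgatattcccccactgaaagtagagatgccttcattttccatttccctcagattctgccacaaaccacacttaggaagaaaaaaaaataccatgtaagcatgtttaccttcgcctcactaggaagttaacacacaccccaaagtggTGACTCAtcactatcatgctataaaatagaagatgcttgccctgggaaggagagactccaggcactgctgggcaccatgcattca
Mmp1b (chr9:7387977-7388276, minus strand): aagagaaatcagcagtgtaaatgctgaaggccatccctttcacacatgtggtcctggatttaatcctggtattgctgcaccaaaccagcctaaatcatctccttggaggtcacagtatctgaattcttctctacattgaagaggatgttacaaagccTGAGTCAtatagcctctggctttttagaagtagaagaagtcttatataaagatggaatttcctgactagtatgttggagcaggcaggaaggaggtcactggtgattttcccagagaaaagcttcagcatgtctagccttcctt
Mmp3 (chr9:7445572-7445871, plus strand): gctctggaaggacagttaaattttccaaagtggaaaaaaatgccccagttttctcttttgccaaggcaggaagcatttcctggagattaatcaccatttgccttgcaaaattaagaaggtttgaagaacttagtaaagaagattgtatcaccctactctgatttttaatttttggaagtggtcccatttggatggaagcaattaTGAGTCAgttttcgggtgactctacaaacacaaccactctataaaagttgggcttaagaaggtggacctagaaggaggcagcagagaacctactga
Mmp10 (chr9:7502092-7502391, plus strand): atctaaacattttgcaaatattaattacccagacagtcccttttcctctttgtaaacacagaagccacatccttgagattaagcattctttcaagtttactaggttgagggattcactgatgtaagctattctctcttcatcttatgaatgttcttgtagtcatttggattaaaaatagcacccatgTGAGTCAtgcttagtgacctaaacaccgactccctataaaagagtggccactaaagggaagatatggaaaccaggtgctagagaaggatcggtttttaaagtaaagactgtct
The motif lay 35 to 29 bases before the start of Mmp13, 93 to 87 bases before that of Mmp1b, 46 to 40 before that of Mmp3 and 63 to 57 before that of Mmp10. Searched on both strands, TGANTCA occurred in 2565 of 32851 RefSeq promoter windows of this length, or 7.81%. Of the 10 genes of the cluster, 8 held it in a window, among them Mmp12, Mmp1a, Mmp20 and Mmp7, which had almost no counts here. A window was found for 26 of the 42 members, and 5 of their 29 windows held the motif, the fifth belonging to Adam19. Mmp9 and Adamts7 were among the members without a window, so their promoters were not searched. The NF-kB consensus, searched on both strands and overlapping no AP-1 match in the member windows, occurred in 8.46% of all windows and in 2 of the 29, those of Adam19 and Mmp25. These matches describe letters in a window and no binding was measured.

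Outside the cluster, Adamts7 went from 5.36, 6.44 and 4.92 CPM in knockdown to 16.3, 15.1 and 15.3 CPM in add-back libraries. The groups were clearly apart, with a log2 fold change of 1.48 ± 0.08 (edgeR adjusted p = 2.6e-09). Exons of Adamts7 share 1.90% of their length with Tbc1d2b on the opposite strand, which rose by 0.36 on the log2 scale. Mmp9 went from 1.16, 1.16 and 1.24 CPM to 2.84, 3.01 and 2.24 CPM without overlap (log2 1.19 ± 0.13, edgeR adjusted p = 9.7e-06). The neutrophil calprotectin gene S100a8 also rose, from 0.111 ± 0.0172 to 1.42 ± 0.293 CPM (edgeR adjusted p = 4.8e-06), while S100a9 and Mpo stayed at 0. Adam22 went from 1.07, 0.841 and 1.48 CPM to 1.86, 2.54 and 2.16 CPM, close together but without overlap (log2 0.95 ± 0.18, edgeR adjusted p = 0.0021).

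The remaining calls between add-back and knockdown cells were small. Adam17 rose 1.11-fold, from 145, 154 and 147 CPM to 164, 164 and 168 CPM (log2 0.16 ± 0.04, edgeR adjusted p = 0.0084). Adamts10 rose 1.23-fold from 6.67 ± 0.471 to 8.24 ± 0.502 CPM (edgeR adjusted p = 0.032), a call lost without add-back replicate 1 (adjusted p = 0.062), add-back replicate 2 (0.114), knockdown replicate 1 (0.130) or knockdown replicate 3 (0.072). Adamts1 went from 44.9, 41.4 and 40.2 CPM to 31.9, 29.7 and 34.1 CPM, a 1.32-fold fall without overlap (log2 -0.40 ± 0.06, edgeR adjusted p = 0.00013). Timp1 went from 49.2, 49.6 and 47.3 CPM to 41.9, 39.5 and 39.5 CPM, a 1.21-fold fall without overlap (log2 -0.27 ± 0.05, edgeR adjusted p = 0.0012).

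Adamtsl4 and Mmp14 were also called lower, less firmly. Adamtsl4 fell 1.39-fold, from 39.2, 33.3 and 35.1 CPM to 28.5, 25.8 and 23.1 CPM (edgeR adjusted p = 0.023). Its call was lost without add-back replicate 2 (adjusted p = 0.075), add-back replicate 3 (0.094), knockdown replicate 1 (0.076) or knockdown replicate 3 (0.056). Mmp14 fell 1.12-fold, from 84.2, 83.8 and 83.3 CPM to 74.1, 78.5 and 72.5 CPM (edgeR adjusted p = 0.018). That call was lost without add-back replicate 1 (adjusted p = 0.065), add-back replicate 3 (0.086), knockdown replicate 1 (0.055) or knockdown replicate 2 (0.066).

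The 27 members not called included most of those with large differences between knockdown and scramble cells. Mmp24 was at 1.06, 1.24 and 1.01 CPM in add-back against 0.824, 0.701 and 1.04 CPM in knockdown libraries, which overlapped (edgeR adjusted p = 0.15, and 0.046 without knockdown replicate 3). Adam19 was at 4.31 ± 0.439 against 4.97 ± 0.762 CPM, Adam8 at 7.09 ± 0.621 against 7.09 ± 0.191 CPM and Adamts14 at 12.95 ± 1.46 against 11.6 ± 0.157 CPM (edgeR adjusted p = 0.42, 1.00 and 0.20, with Adamts14 called higher without add-back replicate 3, 0.026). Timp2 was at 546, 551 and 521 CPM and Timp3 at 0.211, 0.212 and 0.457 CPM in add-back libraries (edgeR adjusted p = 0.12 and 0.89 against knockdown). Mmp2 was at 0.0396, 0.0424 and 0.0714 CPM in add-back libraries and Adam10 at 115, 117 and 123 CPM, and both overlapped the knockdown libraries (edgeR adjusted p = 0.91 and 0.77). Adam9 was at 176, 184 and 182 CPM in add-back libraries, below each knockdown library but not called (edgeR adjusted p = 0.081). Adamts4 was at 3.84 ± 0.480 against 3.08 ± 0.453 CPM and was called higher without knockdown replicate 3 (edgeR adjusted p = 0.041).

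Add-back cells compared with scramble cells carried more Mmp13, Mmp3 and Mmp10, of the MMP cluster on chromosome 9, and still far less Mmp24 and less of most ADAMTS genes. Mmp13 was 26.9-fold and Mmp3 10.3-fold higher, whereas Mmp24 was 70.2-fold and Adam3 29.4-fold lower. Mmp13 was 65.8-fold higher without scramble replicate 2 and 17.9-fold without scramble replicate 3, and Adam3 was 57.7-fold lower without add-back replicate 1. Mmp1b, the fourth member of the cluster, was not tested and had 32 counts over the scramble and 14 over the add-back libraries. By edgeR 12 members were higher, 23 lower and 4 not called, with 27% of all tested genes called higher and 28.7% lower. The members' shares were 30.8% and 59.0%, and their median log2 fold change was -0.99 against -0.002 over all tested genes. Among these 39, Mmp2, Mmp25, Adam5, Adam12 and Adamts17 were members through their scramble level alone, and Mmp13 and Timp3 through their knockdown and add-back levels alone. Of the 32 members at 0.1 CPM in all groups 10 were higher and 18 lower with a median of -0.64. The scramble libraries are those of the knockdown comparison and the add-back libraries those of the IKK2-SE comparison.

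The add-back libraries lay apart from the scramble libraries for every member called. This largely restates the calls, and the share over all called genes was not counted. The largest rises were those of Mmp13 (log2 4.75 ± 0.45, edgeR adjusted p = 1.5e-07), Adam19 (3.82 ± 0.19, 6.0e-11), Mmp3 (3.36 ± 0.29, 4.0e-08), Adamts10 (0.95 ± 0.09, 1.3e-07) and Mmp10 (0.82 ± 0.09, 1.5e-06) among members above 1 CPM in a group. For Mmp10 the add-back libraries, at 12.95 CPM or more, stood above the scramble libraries, at 8.10 CPM or less. Adam19 was at 4.302, 4.75 and 3.87 CPM and Adamts10 at 8.10, 8.79 and 7.81 CPM in add-back libraries. The largest falls were those of Mmp24 (log2 -6.13 ± 0.09, edgeR adjusted p = 2.5e-17), Mmp25 (-5.55 ± 0.65, 1.9e-06), Adam3 (-4.88 ± 0.34, 1.2e-08), Adamts17 (-3.86 ± 0.30, 1.3e-08) and Adam22 (-2.71 ± 0.14, 1.2e-10). In add-back libraries Adam3 was at 0.356, 0.141 and 0.0429 CPM and Adamts17 at 0.0792, 0.113 and 0.0857 CPM. Mmp25 was at 0.0660, 0 and 0 CPM there, on 5 counts, and without add-back replicate 1 it was at least 54.4-fold lower against the floor of 3 counts. Adam12 had 2 counts there, 78.0-fold lower in CPM than in scramble with a 95% counting interval from 21.2 to 649, and without add-back replicate 2, which held both counts, it was at least 35.0-fold lower.

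Mmp9, Adamts7 and Adam22 lay between the other groups in the add-back cells. Mmp9 was 10.9-fold lower than scramble in knockdown and 4.77-fold lower in add-back cells (edgeR adjusted p = 2.1e-11 for the second). Adamts7 was 7.10-fold and 2.54-fold lower, and Adam22 12.7-fold and 6.55-fold lower. The TIMP genes stayed above scramble: Timp2 was 1.56-fold higher (edgeR adjusted p = 1.9e-10), Timp3 at least 21.1-fold higher and Timp1 1.09-fold higher. The Timp1 call (edgeR adjusted p = 0.044) was lost with library totals (0.093), without the filter on low counts (0.096), and without add-back replicate 1 (0.138), scramble replicate 2 (0.114) or scramble replicate 3 (0.147).

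Other calls against scramble also turned on single libraries. Adam10 was 1.11-fold lower (edgeR adjusted p = 0.0100), a call lost without add-back replicate 1 (0.058) or scramble replicate 2 (0.054). The call of Adam11 (adjusted p = 0.0067) was lost without scramble replicate 2 (0.060). Mmp23, an MMP held in the membrane by its amino end, was 2.65-fold lower (edgeR adjusted p = 0.016), and its call was lost without add-back replicate 3 (0.068) or scramble replicate 3 (0.083).

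The make-up of each family shifted as well as its sum. Mmp14 held 43.9% ± 0.586 of the summed MMP level per kilobase in scramble, 59.6% ± 0.555 in knockdown and 42.4% ± 1.95 in add-back cells. Mmp24 went from 28.4% ± 0.148 of that sum to 0.772% ± 0.150 and 0.795% ± 0.0922, and Mmp10 from 7.94% ± 0.404 to 11.1% ± 1.66 and 27.4% ± 2.16. The MMP sum itself was 58.3 ± 2.88, 23.6 ± 0.126 and 29.7 ± 0.338 CPM per kilobase in the 3 groups, and no library of a group reached the range of another. Adamts1 held 40.5% ± 0.922, 59.7% ± 1.39 and 44.4% ± 3.05 of the ADAMTS sum and Adamts7 16.9% ± 0.210, 6.66% ± 0.951 and 18.3% ± 0.569. That sum was 37.3 ± 0.378 CPM per kilobase in scramble, 13.3 ± 0.451 in knockdown and 13.6 ± 0.138 in add-back cells, with overlap between the last 2. Within the ADAM family Adam9 held 31.7% ± 0.405, 39.2% ± 0.156 and 37.1% ± 0.648, and the ADAM sum was 108 ± 0.493, 120 ± 1.69 and 118 ± 0.643 CPM per kilobase.

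**Figure D5:**
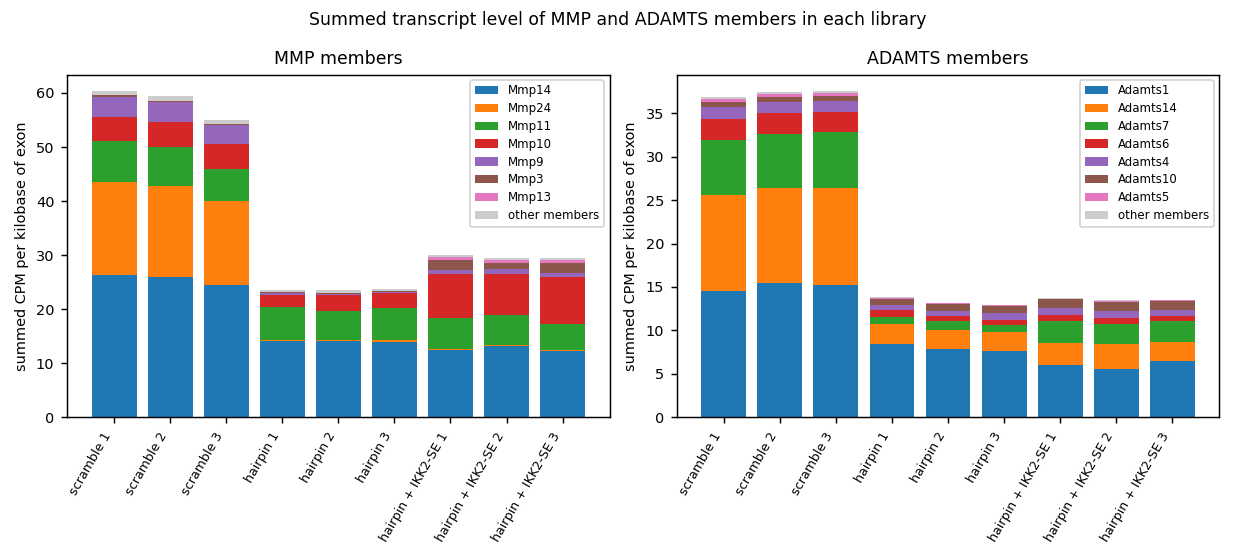
Summed level of the MMP members (left) and ADAMTS members (right) in each library, in CPM per kilobase of exon, stacked by gene with the 7 listed genes in colour and the remaining members in grey. The Mmp24 layer, 28.4% of the MMP sum in scramble cells, is under 1% in all other libraries, and the Mmp10 layer is widest in the add-back libraries.

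Genes that act with these proteases were described from 4 lists. Of 25 activators and inhibitors that work around the cell, such as the plasminogen system, 13 were tested, 3 were higher and 5 lower in knockdown than scramble cells, and 1 was higher and 2 lower in add-back than knockdown cells by edgeR. The shares were 23.1% higher and 38.5% lower beside 27.7% and 29.9% of all tested genes, and 7.69% and 15.4% beside 5.61% and 4.82%. Their median log2 fold changes were -0.08 and -0.02. Plaur, the urokinase receptor, fell 2.12-fold from 146 ± 0.486 to 69.1 ± 1.49 CPM, and Furin, which removes the propeptide of membrane-anchored MMPs and ADAMs, fell 1.82-fold from 47.4 ± 1.03 to 26.1 ± 0.572 CPM (edgeR adjusted p = 5.9e-13 and 7.0e-11). Htra1, a secreted serine protease, rose 1.51-fold from 563 ± 1.18 to 852 ± 8.65 CPM (edgeR adjusted p = 3.6e-10).

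Of 12 partners of Adam10 and Adam17, 10 were tested, 3 were higher and 4 lower in knockdown cells, and 2 were higher and 1 lower in add-back than knockdown cells, with median log2 fold changes of 0.02 and 0.04. These shares, 30% and 40% and then 20% and 10%, stand beside 27.7% and 29.9% and then 5.61% and 4.82% of all tested genes. Tspan5 and Tspan15, tetraspanins that escort Adam10, both rose. Tspan5 went from 47.8 ± 0.616 to 98.1 ± 4.17 CPM and Tspan15 from 42.6 ± 0.653 to 69.2 ± 6.40 CPM (edgeR adjusted p = 3.3e-12 and 1.6e-08), and Tspan15 fell to 52.7 ± 1.46 CPM with IKK2-SE (edgeR adjusted p = 0.00015). Rhbdf2, which carries Adam17 to the surface, fell 1.30-fold and Pacsin3, an endocytic adaptor that binds ADAMs, 13.6-fold in knockdown cells (edgeR adjusted p = 2.3e-05 and 3.9e-13).

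Of 30 ligands and receptors that ADAMs cut, 22 were tested, 9 were higher and 7 lower in knockdown cells, and 8 were higher and 4 lower in add-back than knockdown cells, with median log2 fold changes of 0.17 and 0.12. Higher and lower calls made up 40.9% and 31.8% of them in knockdown cells, beside 27.7% and 29.9% of all tested genes, and 36.4% and 18.2% with IKK2-SE, beside 5.61% and 4.82%. Areg, an epidermal growth factor receptor ligand released by Adam17, rose from 14.0 ± 0.657 to 51.1 ± 1.09 CPM in knockdown cells and fell to 35.6 ± 2.94 CPM with IKK2-SE (edgeR adjusted p = 2.9e-13 and 1.3e-05). Notch1, which Adam10 cuts on ligand binding, rose from 0.587 ± 0.190 to 6.69 ± 0.796 CPM, and the receptor Axl fell from 1967 ± 40.3 to 1205 ± 29.4 CPM (edgeR adjusted p = 6.0e-11 and 5.2e-11). Vcam1, an adhesion molecule shed by Adam17, was not called between knockdown and scramble cells (edgeR adjusted p = 0.16) and rose with IKK2-SE from 3.05 ± 0.363 to 14.1 ± 0.628 CPM (edgeR adjusted p = 2.5e-10).

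Of 20 matrix substrates, 14 were tested, 7 were higher and 5 lower in knockdown cells, and 2 were higher and 4 lower in add-back than knockdown cells, with median log2 fold changes of 0.21 and -0.08. In knockdown cells 50% were higher and 35.7% lower beside 27.7% and 29.9% of all tested genes, and with IKK2-SE 14.3% and 28.6% beside 5.61% and 4.82%. Thbs1, a matricellular protein cut by Adamts1, rose from 29.7 ± 0.769 to 1123 ± 24.0 CPM and fell to 841 ± 27.8 CPM with IKK2-SE (edgeR adjusted p = 4.3e-20 and 1.1e-06). The fibrillar collagen genes Col3a1 and Col1a2 were at 0 and 0.0682 ± 0.0191 CPM in scramble and at 13.4 ± 0.504 and 4.18 ± 0.471 CPM in knockdown cells. Col1a2 fell to 1.66 ± 0.0724 CPM with IKK2-SE (edgeR adjusted p = 7.2e-06). Sparc, a collagen-binding matricellular protein, fell from 357 ± 11.98 to 192 ± 4.63 CPM in knockdown and to 162 ± 1.60 CPM in add-back cells (edgeR adjusted p = 4.5e-12 and 0.00026).

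Adam33 and Adam32, like Mmp1b, had too few counts for the test. Adam33, an ADAM studied in airway tissue, had 25 counts over the scramble, 12 over the knockdown and 16 over the add-back libraries. Adam32, a testis ADAM in the chromosome 8 group, had 6, 21 and 25 counts, with 15 of the 25 in add-back replicate 3. The scramble to knockdown ratio of Mmp1b was 34.3, with a 95% counting interval from 5.73 to 1397, which covers counting error only.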

How the data were processed

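Libraries were prepared with an mRNA-seq kit from column-purified RNA, per the labels' protocols. The authors deposited raw counts, 1 whole number per gene symbol and library, without normalization. FastQC, MultiQC, STAR and the mm10 build are named, without versions, per the submitters' processing notes. How reads were counted, against which annotation and whether by strand is not stated there.

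Counts were filtered with filterByExpr by group (minimum count 10, minimum total 15), scaled by TMM and tested with glmQLFit (robust) and glmQLFTest in edgeR 4.0.16 (R 4.3.3) over all 9 libraries, without covariates and with 6 residual degrees of freedom. P-values were Benjamini-Hochberg adjusted over 16766 genes with a threshold of 0.05, and the common biological coefficient of variation was 5.26%. Columns were matched on arm and replicate number, since their hairpin number differs from the titles. The fitting code was tested on simulated data. The chi-square per degree of freedom between replicates ran from 3.85 to 20.7, above sampling noise, so each library counted once.

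Positions and union exon lengths came from GENCODE vM21 (GRCm38, the assembly of mm10) and promoter windows from RefSeq GRCm38.p6. Neighbour medians used 20 tested genes on each side. Per-library values were given for the 5 largest rises and falls per comparison among called members at 1 CPM or more, the Timp genes, Mmp2, Mmp3, Mmp9, Mmp13, Mmp14, Adam10, Adam17, Adamts1 and the 5 members highest per kilobase in scramble cells. Other per-library values were added. Up to 4 genes with the smallest adjusted p were named per accessory list, and 1 such result is not reported here. Members, lists and rules were chosen with earlier results of these data known. The alternatives were DESeq2 size factors, library totals, no low-count filter, at least 1 CPM in 3 libraries, the DESeq2 1.42.0 test, a replicate block, the 2 compared groups alone and each library left out.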

Additional observations from a re-analysis of the deposited data

How the results depend on the processing

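Each result was recomputed under 16 alternatives, of which 9 left out 1 library each, and 1761 of 1830 gene results kept their direction and side of the threshold. No called member changed sign. Of the called members, 31 of 32 between knockdown and scramble, 9 of 12 between add-back and knockdown and 31 of 35 between add-back and scramble cells kept their call under each alternative in which they were tested, and members that the 1 CPM filter removed, or that had no DESeq2 adjusted p, gave no value there. The counts of members called ranged from 8 to 9 higher and 17 to 24 lower between knockdown and scramble, and from 11 to 12 higher and 16 to 23 lower between add-back and scramble cells, the lowest counts coming from alternatives that test fewer members. Between add-back and knockdown cells 7 to 9 members were higher. With a library left out, 2 to 4 were lower, against 4 in all libraries.

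The replicate numbers were not shown to pair the libraries, since deviations of same-numbered libraries correlated between -0.0111 and 0.123. With the replicate number as a block, 2678 genes were called between add-back and knockdown cells in place of 1749, and 7 members were lower in place of 4, Timp2 (adjusted p = 0.021), Adam9 (0.020) and Adam15 (0.037) being added. DESeq2 also called Adam9 lower there (0.034). The cause was not tested.

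Some uncalled members changed sign, not only those with a log2 fold change near 0. Between knockdown and scramble cells Adam17 went to -0.0462 with library totals and ran from -0.0190 to 0.0213 with a library left out, and Adam1a from -0.78 to 0.64. Between add-back and knockdown cells Adam4 went to -0.0018 with DESeq2 and -0.0845 with the block, Adam8 to -0.0031 without the low-count filter and Adamts6 to 0.000117 with library totals. With a library left out, values there ran from -0.54 to 0.58 for Adam4, -0.0663 to 0.0590 for Adam8, -0.0912 to 0.0751 for Adamts6, -0.000308 to 0.0788 for Adam10, -0.0854 to 0.0247 for Adamtsl5, -0.34 to 0.0137 for Adamts5, -0.33 to 0.0055 for Mmp28, -0.17 to 0.34 for Adamts12, -4.57 to 0.23 for Mmp25, -0.12 to 0.55 for Adam11, -0.75 to 0.62 for Adam5, -0.62 to 0.0418 for Timp3 and -0.30 to 0.93 for Mmp2. Between add-back and scramble cells they ran from -0.0665 to 0.36 for Mmp28, -0.85 to 0.20 for Adam4 and -0.33 to 1.07 for Adam1a. Members with under 100 counts over a group carry SEs several times those of abundant members, so small differences in them were not detectable at this depth.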
